A study of Mus musculus and Homo sapiens with 59 samples.

Results

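The genes described here encode the proteins of the cytosolic ribosome. They were the rows of the deposited tables whose symbols start with Rpl or Rps followed by a number with an optional a or x, by p0 to p2, or by a (Rpsa), with the same rule in capitals for human cells. The rule used names and no measured value, and it found 76 of 19407 mouse rows (46 of the large and 30 of the small subunit) and 77 of 22192 human rows (46 and 31). The human row without a mouse counterpart was RPS3A, whose mouse row is named Rps3a1 and so falls outside the rule, as does Fau, which encodes a ribosomal protein fused to a ubiquitin-like protein.

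The 59 libraries of polyadenylated RNA came from cell lines in which a pore-forming protein or a detergent opened the plasma membrane: 35 of NIH3T3 mouse fibroblasts, 16 of LLC mouse lung carcinoma cells, 4 of HT29 human colon carcinoma cells and 4 of BxPC3 human pancreatic carcinoma cells. Cells carried no construct (parental), hMLKL1–181-2Fv, which is a human MLKL fragment joined to a domain that the drug AP20187 dimerizes, or mGSDMD1-276-HBD, a mouse gasdermin D fragment joined to a hormone-binding domain that answers to 4OHT (4-hydroxytamoxifen). AP20187 was given at 100 nM for 1 h to parental and MLKL cells, and 4OHT at 50 nM for 2.5 h to parental LLC cells and to GSDMD cells of both mouse lines. Digitonin, a detergent, was given to cells without a construct, with 55 µg/mL for 3 h in the mouse lines and, in HT29 and BxPC3 cells, 40 µg/mL for 2 h. Further NIH3T3 groups, all with the MLKL construct, were kept in calcium-free DMEM, titled siCTR or siPKC, or titled noko or p65ko. Untreated groups are titled NT in the labels, apart from the untreated LLC MLKL libraries, which are titled noBB. The digitonin arms of the mouse lines have untreated groups called noDig. Of the 30 groups 29 had 2 libraries, and the siPKC group given AP20187 had 1. One LLC library given AP20187 is titled 18 rather than 181 and was placed by its other labels, among them the treatment. Whether constructs or knockouts are single clones, and whether the 2 libraries of a group came from separate cultures, is not given in the sources used here, so p-values measure the spread between these libraries, which may be technical. Fibroblast markers were present in NIH3T3 cells (Col1a2 at a median of 954 TPM) and epithelial markers in HT29 and BxPC3 cells (EPCAM at medians of 878 and 129 TPM). LLC cells were mixed, with medians of 0 TPM for Epcam and 171 TPM for Krt8. Of the fibroblast markers they had 0.035 TPM for Col1a2 but 3465 TPM for Vim, beside 5059 TPM for Vim in NIH3T3 cells. Of 2 intestinal markers in HT29 cells, VIL1 had a median of 51.9 TPM and CDX2 of 0.84 TPM.

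Ribosomal proteins are among the most abundant messages of a growing cell. A large (60S) and a small (40S) subunit are built in the nucleolus from ribosomal RNA and mostly 1 copy of each protein. Many ribosomal protein messages start with a run of pyrimidines, the TOP motif, through which mTOR and LARP1 set their translation and stability, and several of the proteins have tasks outside the ribosome: RPL5 and RPL11 bind MDM2, RPL13A takes part in silencing inflammatory messages, and RPLP0, RPLP1 and RPLP2 form the stalk that recruits elongation factors.

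The values are TPM, transcripts per 1000000, which account for transcript length and sum to the same total in each library. Sequencing depth cannot be recovered from them, and they are shares: a gene can hold its share while its amount per cell falls, and fewer cells and less RNA per cell cannot be told apart. Changes below are differences of log2(TPM + 1), given with their standard error (SE) from limma, and a gene passed where its Benjamini-Hochberg adjusted p over all genes tested in the comparison was under 0.05. All 76 or 77 genes were expressed well enough to be tested in each comparison. The share of all tested genes that passed in the same direction is given beside the first count in each comparison as the background. Remarks that groups did not overlap only describe the values, since groups are small and most genes named were picked for large changes. Because the median of all genes moved by more than 0.1 in several arms, counts after median centring, in which each library is set to the median of its tested genes, are given beside the raw ones. Where the median of all genes fell, centring moves every gene up. The raw backgrounds therefore do not apply to centred counts, and the share of all genes after centring is given for some arms only. Quantile normalization gives every library the same distribution, and these genes fill a large part of its top, so it can remove a change they share. It did not do so throughout. Of the counts of passing genes in 26 comparisons, 14 stayed about the same under it, 5 moved or weakened and 7 reversed in direction.

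The ribosomal protein genes took between 18.4% and 25.6% of all TPM in NIH3T3 libraries, between 20.7% and 24.4% in LLC, between 19.5% and 20.7% in HT29 and between 14.2% and 15.7% in BxPC3. They filled between 54 and 62 of the 100 highest rows of each NIH3T3 library and between 47 and 50 in BxPC3. The highest means in mouse cells belonged to Rplp1 (9539 TPM), a stalk protein, Rpl41 (8603 TPM), the smallest ribosomal protein, and Rps12 (6497 TPM), of the small subunit. Human cells were led by RPL41 (7831 TPM), RPLP1 (5655 TPM) and RPS2 (5370 TPM). The lowest human means were those of RPL13 (337 TPM), RPS23 (342 TPM) and RPL27A (382 TPM).

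At the other end of the mouse table, Rpl26, whose protein lines the exit tunnel of the large subunit, was listed at 0 in 15 of 51 libraries and had a median of 3.66 TPM and a highest value of 18.4 TPM. Rps27, of the small subunit, had a median of 17.6 TPM, Rpl34 of 51.4 and Rpl30 of 48.3, both of the large subunit. Their human counterparts were not low: RPL26, RPS27, RPL30 and RPL34 had medians of 3041, 4834, 2875 and 455 TPM. For each of the 4 low mouse genes another row of the table is a near-identical copy and held far more TPM than the gene itself: Gm15772 for Rpl26 (median 4356 TPM), Rps27rt for Rps27 (3882 TPM), Gm12191 for Rpl30 (4567 TPM) and Rpl34-ps1 for Rpl34 (3052 TPM). Gm15772 (chr5:3236431-3236868), Gm12191 (chr11:49678710-49679057) and Rpl34-ps1 (chr6:71124610-71124963) are processed pseudogenes and Rps27rt (chr9:114982366-114982739) is a protein-coding retrogene in the GENCODE vM21 annotation of mm10. Aligned to the first protein-coding transcript of its gene, Gm15772 differed at 2 of 438 bases, Gm12191 at 1 of 348, Rpl34-ps1 at 2 of 354 and Rps27rt at 0 of 341, without gaps. The stretches of 30 bases around each differing base, which is in capitals, show how little sequence tells the rows apart. Positions are counted from 1 at the first base of the copy, and the gene's base comes first.
Rpl26, C177T: agttcaggttgttcgCggacactacaaagg
Gm15772, C177T: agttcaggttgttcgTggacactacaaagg
Rpl26, T288C: tggcacaaccgtccaTgtgggcatccaccc
Gm15772, T288C: tggcacaaccgtccaCgtgggcatccaccc
Rpl30, G96A: cgtgctgggctacaaGcagactctgaagat
Gm12191, G96A: cgtgctgggctacaaAcagactctgaagat
Rpl34, T132C: gaaagcacctaaatcTgcatgtggcgtgtg
Rpl34-ps1, T132C: gaaagcacctaaatcCgcatgtggcgtgtg
Rpl34, C318G: aatcgttgtgaaagtCttgaaggcacaagc
Rpl34-ps1, C318G: aatcgttgtgaaagtGttgaaggcacaagc

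Reads from a gene and such a copy cannot be told apart where the sequence is shared, so the values of these 4 genes on their own are uncertain. Adding each copy to its gene gave sums that lay between 3743 and 5337 TPM over the 51 mouse libraries for Rpl26 with Gm15772, a highest-to-lowest ratio of 1.43. The ratios were 1.91 for Rpl34 with Rpl34-ps1, 1.95 for Rpl30 with Gm12191 and 2.26 for Rps27 with Rps27rt. In all, 12 mouse genes had a row holding at least 20% of their 31-base words, 13 rows in total. The other pairs were less lopsided, such as Rpl31 (median 886 TPM) with Rpl31-ps12 (1150 TPM) and Rpl14 (1568 TPM) with Rpl14-ps1 (500 TPM).

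**Figure D1:**
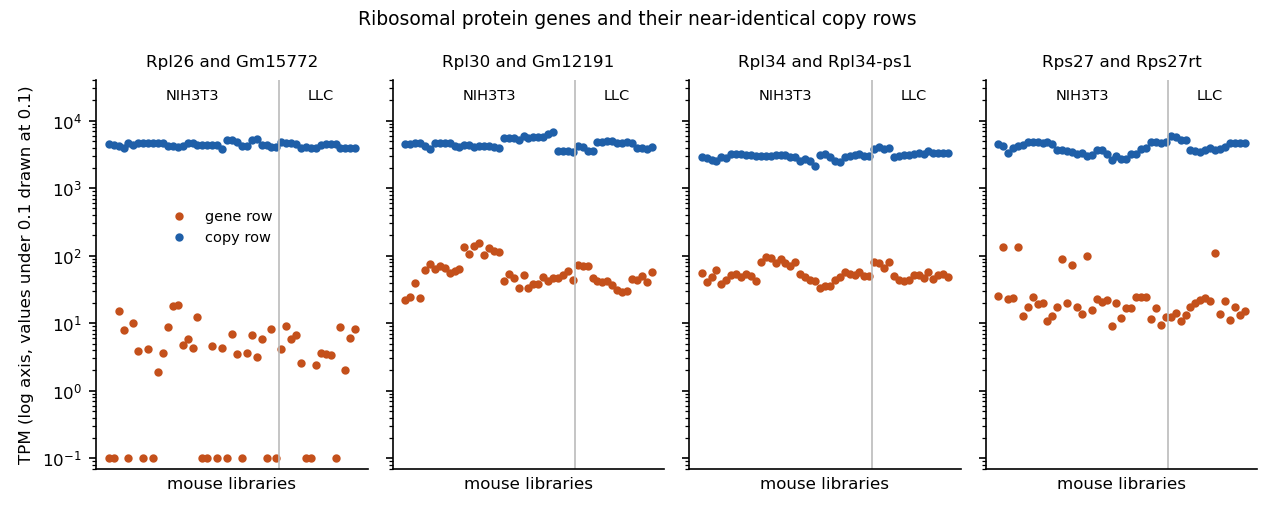
TPM (log axis) of 4 ribosomal protein genes (orange) and of their near-identical copy rows (blue) in each of the 51 mouse libraries, ordered by line and group; values under 0.1 are drawn at 0.1. The copy rows stay above 2104 TPM in every library, and the gene rows do not exceed 156 TPM.

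The calls that these rows gave alone did not hold with the copies added. In NIH3T3 GSDMD cells Rpl26 was listed at 15.3 and 7.95 TPM untreated and at 0 in both libraries after 4OHT, a fitted difference of −3.60 (SE 1.39, limma adjusted p = 0.0228). Gm15772 meanwhile stood at 4146 and 3988 TPM untreated and 4457 and 4299 TPM treated, and the sum gave 0.10 (adjusted p = 0.0631). In LLC cells given digitonin Rps27 was listed at 21.5 and 110 TPM against 13.6 and 21.1 TPM (difference 1.48, SE 0.52, adjusted p = 0.0314), and the sum with Rps27rt gave −0.05 (adjusted p = 0.302). High Rps27 values sat in single libraries, such as 133 TPM in 1 of the 2 NIH3T3 MLKL libraries given AP20187 against 12.9 TPM in the other.

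The levels of single genes differed between untreated groups of a line. Over the 9 untreated NIH3T3 groups the highest and the lowest group mean of a gene lay a median of 0.57 apart on the log2 scale, and over the 4 untreated LLC groups a median of 0.32. Such a range widens with the number of groups and is given as a description. Rps26, a protein of the messenger exit channel of the small subunit, averaged 9637 TPM in untreated NIH3T3 GSDMD cells and 3157 TPM in untreated p65ko cells, 3.05 times lower. Rpl39, a small protein of the exit tunnel, ran the other way, with 939 TPM in the first group and 3225 TPM in the second. Rpl36a spanned 1349 TPM (GSDMD) to 3312 TPM (noDig). Rplp0, often used as a reference gene, spanned only 4368 to 5608 TPM. The summed large subunit exceeded the summed small subunit by between 1.29 and 1.61 times in NIH3T3 libraries and by between 1.37 and 1.41 times in LLC libraries.

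After subtraction of the mean of each line, the 76 mouse genes correlated with the mean of the other 75 over 51 libraries with a median Pearson r of 0.45, from −0.03 for Rpl21 and 0.01 for Rps26 to 0.85 for Rpl6, an early-assembling large subunit protein. Among 7893 genes outside the list with a mean of at least 10 TPM, the 10 most like the mean of the list were Fau (r = 0.76), Rpl34-ps1 (0.66), Cox4i1 (0.64), Gtpbp6 (0.63), Gnb2l1 (0.63), Gm15772 (0.61), Snord104 (0.60), Pck2 (0.60), Snora33 (0.60) and Eef1b2 (0.59), beside a median r of −0.18 over all of them. Fau encodes the small subunit protein that the naming rule misses, Gnb2l1 encodes RACK1, a scaffold bound to the small subunit, and Rpl34-ps1 and Gm15772 are the copies described above. These libraries share groups and the constant sum of TPM, so the values are descriptions.

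The drugs moved at most 1 ribosomal protein gene in parental cells, in calcium-free MLKL cells and in LLC MLKL cells. AP20187 in parental NIH3T3 cells changed 0 of 76 genes (0.304% of all genes passed, 0.0174% higher and 0.287% lower; the median change was 0.02 for the 76 and −0.02 for all genes). Their share of TPM was 21.7% and 22.1% untreated, and the treated mean was 22.01%. 4OHT in parental LLC cells changed 0 of 76 (0.864% of all genes passed, 0.819% higher and 0.045% lower; medians −0.01 and 0.03). AP20187 in calcium-free NIH3T3 MLKL cells changed 0 of 76 (5.69% passed, 2.27% higher and 3.42% lower; medians −0.01 and 0.02). At an unadjusted limma p under 0.05 these 3 arms had 0, 2 and 2 genes. AP20187 in LLC MLKL cells lowered only Rpl12, which sits at the base of the stalk, from 5094 and 5111 TPM to 4862 and 4835 TPM (−0.07, SE 0.02, adjusted p = 0.0246), beside a background of 7.56% (5.48% higher, 2.08% lower), and it did not pass when any 1 of the 4 libraries was left out.

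**Figure D2:**
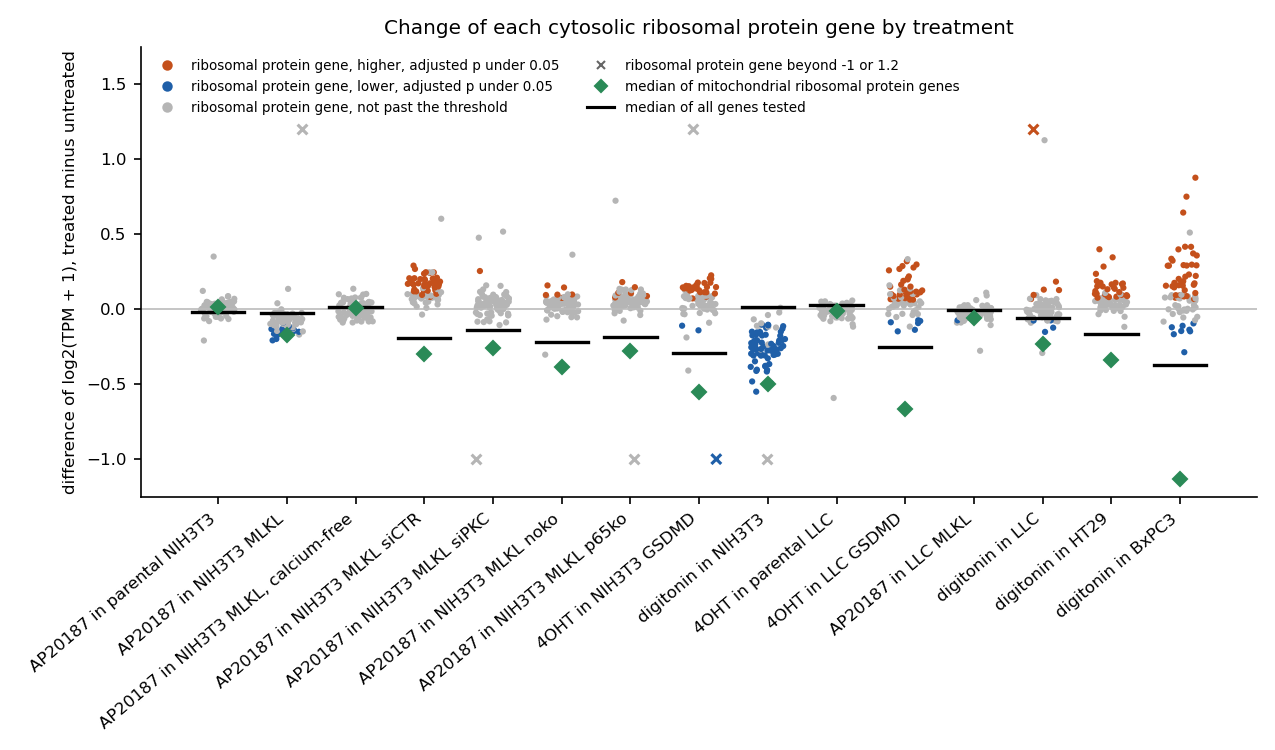
Change of every ribosomal protein gene, as the difference of log2(TPM + 1) between treated and untreated libraries, in the 15 treatment comparisons (points, coloured by the limma call; crosses lie beyond the axis). Horizontal bars are the median of all genes tested and diamonds the median of the mitochondrial ribosomal protein genes. In the arms where the bar falls below −0.1 the median of the ribosomal protein genes lies above 0. Some of their points lie below 0, down to −3.60 in NIH3T3 GSDMD cells and −0.29 in BxPC3 cells.

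After gasdermin D activation more ribosomal protein messages rose than fell in both mouse lines while the median gene lost share, except that under quantile normalization 7 rose and 18 fell in NIH3T3 cells. In NIH3T3 GSDMD cells 27 of 76 rose and 3 fell after 4OHT, beside backgrounds of 20.0% and 58.6% (78.6% in all). The median change was 0.08 for the ribosomal protein genes and −0.29 for all genes. After median centring 72 were higher and 1 lower (34.7% and 37.0% of all genes). Rpl13a, of the large subunit, stood at 1881 and 1781 TPM untreated and 2102 and 2124 TPM treated, so the groups did not overlap (0.21, SE 0.05, adjusted p = 0.00130). Rpl17, at the tunnel exit, rose from 2065 and 2258 TPM to 2524 and 2447 TPM (0.20, SE 0.05). Rps28, near the exit site of the small subunit, rose from 4509 and 5643 TPM to 5978 and 5824 TPM (0.23, SE 0.06), with most of the difference in 1 untreated library. Besides Rpl26, the falls were Rps2, at the messenger entry channel, from 5264 and 5250 TPM to 4684 and 4855 TPM (−0.14, SE 0.04), and Rpl27 from 1766 and 1685 TPM to 1594 and 1604 TPM (−0.11, SE 0.04). After centring Rps2 and Rpl27 lay above 0, at 0.13 and 0.16. Without replicate 1 of the untreated libraries 10 rose and 1 fell, and without replicate 1 of the treated ones 15 and 1.

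In LLC GSDMD cells 33 of 76 rose and 6 fell (backgrounds 27.9% and 54.0%, 82.0% in all), with a median of 0.07 beside −0.25 for all genes, and 63 rose and 0 fell after centring. The share of TPM went from 22.5% and 23.0% to 23.9% and 24.4%. Rpl23a, a docking site of the signal recognition particle, stood at 5943 and 6014 TPM untreated and at 7398 and 7532 TPM treated (0.32, SE 0.04, adjusted p = 3.37e-06). Rpl10a went from 2365 and 2372 TPM to 2873 and 2954 TPM (0.30, SE 0.03) and Rpl13a from 2118 and 2151 TPM to 2562 and 2653 TPM (0.29, SE 0.03). For these 3 genes the treated and untreated libraries were far apart. The falls were led by Rpl22, from 316 and 312 TPM to 285 and 281 TPM (−0.15, SE 0.03), Rpl21 (−0.14, SE 0.03) and Rpl11, a part of the 5S particle (−0.09, SE 0.02). After centring these 3 were at 0.00, 0.01 and 0.06 and did not pass. Tested directly, the 4OHT response differed between GSDMD and parental LLC cells in 34 genes, 31 larger and 3 smaller in GSDMD cells (backgrounds 22.4% and 49.4%), and in 22 without replicate 2 of either treated group. With centring 62 were larger and 0 smaller, where Rpl21, Rpl22 and Rpl11, the 3 smaller ones, turned to positive differences that did not pass, and under quantile normalization 13 were larger and 5 smaller.

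In MLKL cells the count depended on the scaling. In NIH3T3 MLKL cells without siRNA or knockout 14 of 76 fell and 0 rose (backgrounds 16.5% and 15.8%, 32.3% in all; medians −0.08 and −0.02 for all genes), and 17 fell after centring. Rps26 fell from 4869 and 4634 TPM to 4007 and 4223 TPM (−0.21, SE 0.05, adjusted p = 0.00206), Rpl29 from 2367 and 2334 TPM to 1945 and 2156 TPM (−0.20, SE 0.05) and Rpl41 from 10239 and 10075 TPM to 8568 and 9453 TPM (−0.17, SE 0.06). The groups did not overlap for these genes. Only 4 fell without either untreated library or without replicate 1 of the treated ones. Length moved with this result: the Spearman correlation of change with transcript length was 0.23 over other genes and 0.34 over the ribosomal protein genes, and with the length trend removed 1 rose and 1 fell. In the 2 knockout series, 6 rose and 0 fell in noko cells (backgrounds 10.6% and 55.5%) and 6 rose and 0 fell in p65ko cells (8.99% and 50.4%). Median changes were 0.04 and 0.06, beside −0.22 and −0.19 for all genes, and after centring 71 and 73 were higher, whereas under quantile normalization 2 rose and 12 fell in noko and 2 rose and 8 fell in p65ko cells. Rpl3, which lines the peptidyl transferase centre, rose in both, from 2576 and 2587 TPM to 2876 and 2889 TPM in noko cells (0.16, SE 0.02, adjusted p = 1.16e-05) and from 2455 and 2426 TPM to 2642 and 2617 TPM in p65ko cells (0.11, SE 0.03, adjusted p = 0.00108). These counts fell to between 1 and 4 in both series with 1 library left out. Rpl12 (0.18), Rpl32 (0.15) and Rps3 (0.11) also rose in p65ko cells. The response differed between p65ko and noko cells in 0 genes by limma, and in 0 of them when any single library was left out (0 at an unadjusted p under 0.05; background 4.1%). With only the compared libraries in the fit 3 differed.

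In siCTR cells 41 of 76 rose and 0 fell after AP20187 (backgrounds 13.7% and 51.8%), with a median of 0.13 beside −0.19 for all genes. With centring 73 rose and 0 fell, under quantile normalization 9 rose and 4 fell, and with only the compared libraries in the fit 4 rose and 0 fell. Without replicate 2 of the treated libraries 21 rose. One untreated library stood apart. The ribosomal protein genes took 20.9% and 18.4% of its group's 2 libraries, against 21.3% and 21.8% after AP20187. Without the library at 18.4%, 10 rose and 2 fell, and without the other 69 rose. Rpl36 (2467 and 2110 TPM to 2602 and 2996 TPM; 0.29, SE 0.07), Rplp2 (3525 and 2975 TPM to 3796 and 4010 TPM; 0.27, SE 0.06) and Rplp1 (9091 and 8159 TPM to 9893 and 10562 TPM; 0.25, SE 0.07), of which 2 are stalk proteins, led. In siPKC cells, with 1 treated library, Rpl39 alone rose (1583 and 1544 TPM to 1866 TPM; 0.26, SE 0.08; background 10.5%), and 38 were higher after centring. The response of siPKC and siCTR cells differed in 0 genes by limma (12 at an unadjusted p under 0.05; background 8.29%), and in 30, all smaller in siPKC cells, without the siCTR library at 20.9%. With centring 8 differed, all smaller in siPKC cells.

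With digitonin more ribosomal protein messages rose than fell in both human lines, which turned under quantile normalization (4 rose and 6 fell in HT29 cells, 12 and 41 in BxPC3 cells). In HT29 cells 29 of 77 rose and 0 fell (backgrounds 16.5% and 44.0%), with medians of 0.07 and −0.16 for all genes, and 75 rose after centring (27.6% of all genes). Without either treated library 14 rose. In BxPC3 cells 39 of 77 rose and 8 fell (23.7% and 56.9%, 80.6% in all), with medians of 0.09 and −0.37, and 77 of 77 rose after centring (41.3%). RPL13A, RPS9 and RPL28 led in both lines. RPL13A stood at 1176 and 1169 TPM in untreated and 1510 and 1472 TPM in treated HT29 cells (0.35, SE 0.03, adjusted p = 4.21e-05), and at 699 and 704 TPM and 1278 and 1302 TPM in BxPC3 cells (0.88, SE 0.03, adjusted p = 2.14e-07). RPS9, a small subunit protein that guards decoding, went from 1372 and 1245 TPM to 1687 and 1764 TPM in HT29 cells (0.40, SE 0.05) and from 728 and 743 TPM to 1237 and 1241 TPM in BxPC3 cells (0.75, SE 0.05). RPL28 went from 1043 and 902 TPM to 1168 and 1196 TPM (0.28, SE 0.07) and from 841 and 829 TPM to 1344 and 1270 TPM (0.65, SE 0.07). No treated library overlapped an untreated one for these 3 genes. Dose and time were the same in both lines.

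The BxPC3 falls were RPL35 (4371 and 4438 TPM to 3458 and 3770 TPM; −0.29, SE 0.04), RPS7 (759 and 770 TPM to 654 and 709 TPM; −0.17, SE 0.04) and RPS27A, the ubiquitin fusion protein (1198 and 1174 TPM to 1066 and 1075 TPM; −0.15, SE 0.03), followed by RPL22, RPL38 and RPL27. After centring the first 3 lay above 0, at 0.14, 0.26 and 0.28. Tested directly, the response differed between the lines in 20 genes, 13 larger and 7 smaller in BxPC3 cells (backgrounds 20.6% and 43.5%). This split depended on the scaling: 69 were larger and 0 smaller with centring, where RPS7, RPS27A and RPL38 turned to positive differences, and 7 were larger and 27 smaller under quantile normalization. RPL13A differed by 0.53 (SE 0.03, adjusted p = 3.70e-05), RPL28 by 0.36 (SE 0.09), RPS12 by 0.35 (SE 0.05) and RPL35 by −0.27 (SE 0.06). With 1 library left out between 11 and 25 differed, the fewest without replicate 1 of the treated HT29 libraries.

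Over the 15 treatment comparisons, Rpl4 (RPL4) rose in 7 and fell in 0, Rpl10 rose in 7 and fell in 1, and Rpl3 and Rps3 rose in 6 and fell in 1. Rpl27 rose in 0 and fell in 6, Rpl22 in 0 and 4, and Rpl38 in 0 and 3. The direction of these 3 depended on the scaling. After centring Rpl27 was higher in 7 and lower in 3, Rpl22 in 6 and 3, and Rpl38 in 6 and 1. Rpl4 was then higher in 8 and lower in 1, Rpl10 in 9 and 1, and Rpl3 and Rps3 in 8 and 1. The tallies include the digitonin arms of the mouse lines.

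Digitonin in the mouse lines has to be read with its controls. In NIH3T3 cells 64 of 76 fell and 0 rose (backgrounds 34.2% and 39.3%), with medians of −0.25 and 0.02 for all genes, and 73 fell after centring. Rpl41 fell from 13077 and 12401 TPM in noDig libraries to 8816 and 8582 TPM (−0.55, SE 0.06, adjusted p = 2.23e-08), Rps14 from 2462 and 2355 TPM to 1707 and 1716 TPM (−0.49, SE 0.07) and Rpl38 from 4535 and 4599 TPM to 3266 and 3274 TPM (−0.48, SE 0.05). The groups did not overlap for these genes. The 2 noDig libraries held the highest ribosomal protein shares of all 59, 25.6% and 25.2%, against 21.4% and 21.3% after digitonin and 21.7% and 22.1% in parental NT libraries. Change followed transcript length over other genes (Spearman 0.47 over 10841 of 11254 genes with a length). The shortest of 10 length bins, a median of 701 bases, changed by a median of −0.31 and the longest, a median of 6991 bases, by 0.58. The ribosomal protein genes, with a median of 772 bases against 2621 for the rest, sat on the short end of that line. With the length trend removed 11 rose and 17 fell, with a median of −0.03.

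**Figure D3:**
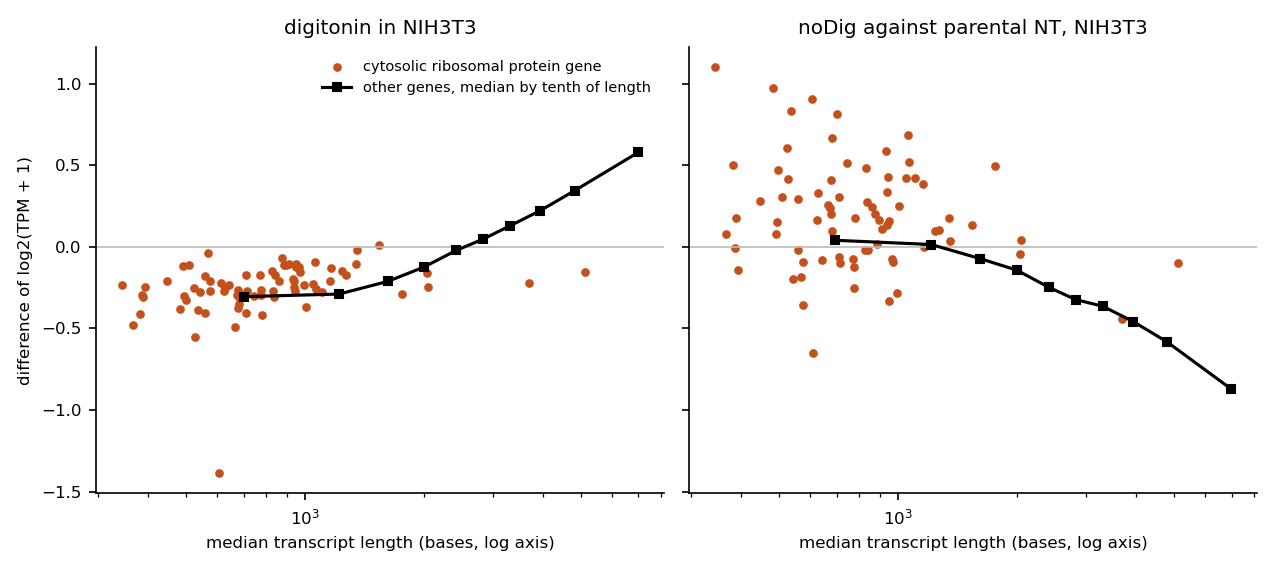
Difference of log2(TPM + 1) against median transcript length (log axis) for the 76 ribosomal protein genes (points) and for 10 equal bins of all other genes (squares), for digitonin against noDig (left) and noDig against parental NT (right) in NIH3T3 cells. The trend runs from −0.31 to 0.58 over the bins on the left and from 0.04 to −0.87 on the right, and most points on the left lie near it.

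The noDig libraries themselves differed from parental NT libraries of the same line, and the opposite way. Of 76 genes 42 were higher and 9 lower (backgrounds 18.4% and 57.7%), and the Spearman correlation with length over other genes was −0.45. Rpl36a led at 3247 and 3378 TPM against 1701 and 1665 TPM (0.98, SE 0.06), followed by Rps15 (0.83, SE 0.05), while Rpl39 was lower (1429 and 1491 TPM against 2350 and 2246 TPM; −0.65, SE 0.07). Against parental NT libraries, 21 ribosomal protein genes rose and 33 fell after digitonin, 40 and 10 with centring, and 35 and 18 with the length trend removed. With the other untreated libraries alone more genes still fell than rose, and the majority turned only when centring or length removal was applied as well. What set the noDig and NT libraries apart was not tested, and the labels give both as untreated cells without a construct.

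In LLC cells digitonin raised 6 and lowered 4 against noDig libraries (backgrounds 20.3% and 32.2%), with a median of −0.06 for all genes. Apart from Rps27, Rpl13 rose from 4110 and 4430 TPM to 4740 and 4960 TPM (0.18, SE 0.05), and Rpl22 fell from 294 and 298 TPM to 272 and 261 TPM (−0.15, SE 0.03) and Rpl23 from 3078 and 3051 TPM to 2836 and 2792 TPM (−0.12, SE 0.03). Without replicate 1 of the noDig libraries 5 rose and 14 fell, without replicate 2 of them 14 and 4, and without replicate 2 of the treated libraries 2 and 3. Against parental NT libraries 48 rose and 15 fell, and Rpl23 turned from −0.12 to 0.51. The noDig libraries of LLC differed from parental NT libraries in 63 genes, 49 higher and 14 lower (backgrounds 26.2% and 40.5%). Rpl28 was at 3857 and 4503 TPM against 2527 and 2223 TPM (0.81, SE 0.07), and Rps27a at 2666 and 2533 TPM against 3555 and 3744 TPM (−0.49, SE 0.03).

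**Figure D4:**
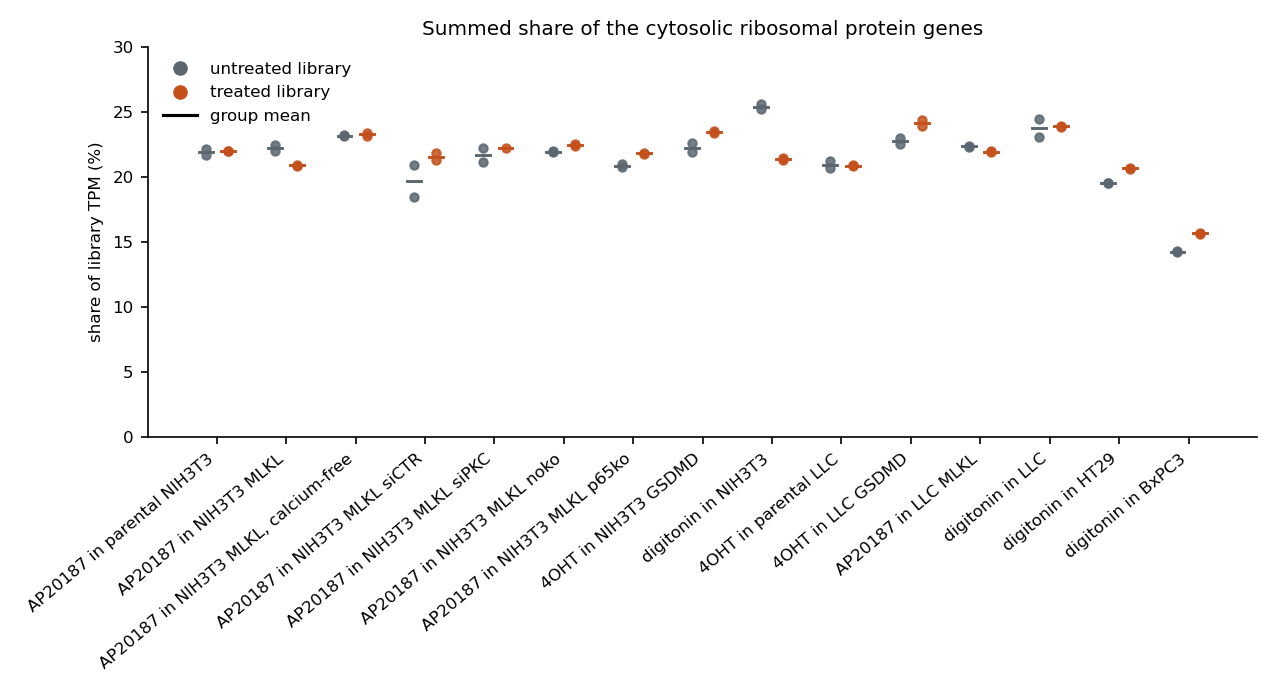
Summed share of library TPM (percent, axis from 0) taken by the cytosolic ribosomal protein genes in each untreated (grey) and treated (orange) library of the 15 treatment comparisons, with group means as bars. The NIH3T3 noDig libraries reach 25.6% and the BxPC3 libraries lie lowest.

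The 77 nuclear genes for the mitochondrial ribosome, a separate machine that translates the genes of the mitochondrial genome, fell in most arms. In NIH3T3 GSDMD cells 74 of them fell and 0 rose (median −0.56), in LLC GSDMD cells 73 fell and 1 rose (−0.67), in BxPC3 cells 75 fell and 1 rose (−1.13) and in HT29 cells 60 fell and 0 rose (−0.34). Mrpl10 changed by −1.02 (SE 0.06) and −1.64 (SE 0.05) in the GSDMD arms, and MRPL44 by −2.37 (SE 0.05) in BxPC3 cells. In NIH3T3 MLKL cells 33 fell, and in siCTR, noko and p65ko cells 61, 72 and 65. In parental NIH3T3 and LLC cells and in calcium-free MLKL cells 0 passed.

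A ratio of summed cytosolic to summed mitochondrial ribosomal protein TPM cancels any scaling of a library as a whole. It was 26.1 ± 0.264 (SD, n = 2) in untreated and 57.9 ± 1.06 in treated BxPC3 cells, and 22.9 ± 0.132 and 29.97 ± 0.0872 in HT29 cells. GSDMD activation took it from 35.4 ± 0.889 to 54.6 ± 0.220 in NIH3T3 cells and from 27.0 ± 0.262 to 43.8 ± 0.571 in LLC cells. In MLKL cells it went from 29.7 ± 0.356 to 38.6 ± 0.135 (siCTR), where the library that stood apart by its share did not (29.5 beside 29.99). It went from 34.6 ± 0.265 to 44.3 ± 0.135 in noko and from 31.8 ± 0.00645 to 39.5 ± 0.000563 in p65ko cells. Digitonin moved it from 33.4 ± 0.226 to 39.0 ± 0.159 in NIH3T3 and from 31.2 ± 0.973 to 37.0 ± 0.0786 in LLC cells. In siPKC cells it was 33.1 ± 0.637 untreated and 40.3 in the treated library. Untreated and treated libraries did not overlap in any of these arms. Smaller steps were seen in NIH3T3 MLKL cells (33.4 ± 0.262 to 35.2 ± 0.114) and LLC MLKL cells (27.6 ± 0.00704 to 28.3 ± 0.0778), and steps down in parental NIH3T3 cells (32.8 ± 0.351 to 32.4 ± 0.0823) and calcium-free MLKL cells (37.8 ± 0.136 to 37.5 ± 0.0142), all without overlap. The groups overlapped in parental LLC cells (24.4 ± 0.248 and 24.5 ± 0.111). Mitochondrial ribosomal protein transcripts are longer, with a median of 1223 bases, and in the NIH3T3 digitonin arm genes of that length fell by a median of 0.29 on the log2 scale.

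**Figure D5:**
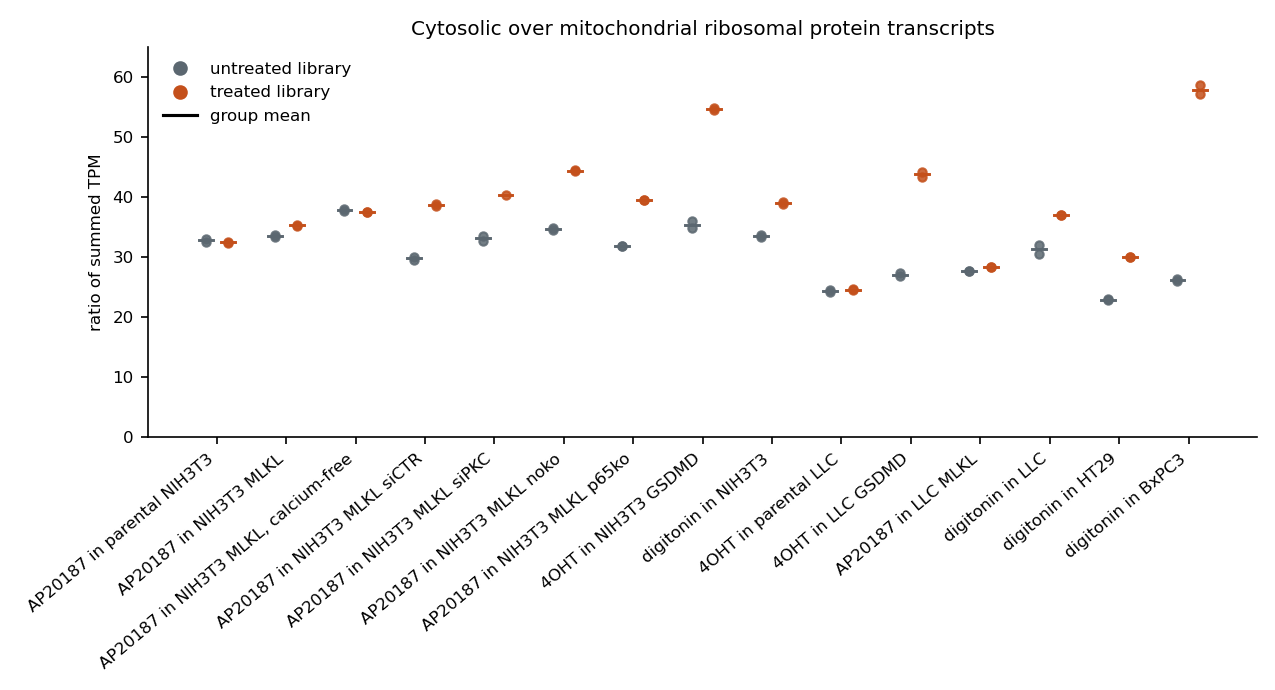
Summed TPM of cytosolic over mitochondrial ribosomal protein genes in each untreated (grey) and treated (orange) library, with group means as bars and the axis from 0. The treated BxPC3 libraries reach 58.6 and the NIH3T3 GSDMD libraries 54.8, and the parental libraries change little.

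A list of translation factors described as starting with a pyrimidine run was also followed, and their starts were not checked here. Of 24 in mice 13 rose and 6 fell in LLC GSDMD cells (median 0.14), and of 23 in BxPC3 cells 13 rose and 6 fell (0.19). The factors named next are ones that rose. Tpt1, a classic TOP message, rose by 0.38 (SE 0.05) and 0.51 (SE 0.03) in the 2 GSDMD arms and TPT1 by 1.07 (SE 0.04) in BxPC3 cells, and EEF2, the translocase of elongation, rose by 0.79 (SE 0.04). Oxidative phosphorylation subunits, with a median transcript of 747 bases, fell in 60 and rose in 0 cases in NIH3T3 GSDMD cells (median −0.31), fell in 60 and rose in 3 in LLC GSDMD cells and fell in 70 and rose in 0 in BxPC3 cells. Proteasome subunits fell in 33, 27 and 37 cases in those arms. In mice these 2 lists held 76 oxidative phosphorylation and 38 proteasome rows. The shares of all genes that fell, given above with each arm, are the background for these counts, and only some arms are described here. Ribosome biogenesis and RNA polymerase I genes, which build the particle, split: 27 of 36 rose and 7 fell in LLC GSDMD cells, 9 rose and 18 fell in NIH3T3 GSDMD cells, and 1 rose and 35 fell in BxPC3 cells (median −1.35). Host genes of small nucleolar RNAs rose in 7 of 8 cases in LLC GSDMD cells and in 8 of 10 in BxPC3 cells, where 2 fell.

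A pyrimidine run was found at the listed start sites of some of the genes that led and not at those of others. RefSeq start sites (GRCm38.p6) were given for 56 of the 76 mouse genes, 66 sites in all. A run of C followed by at least 4 bases that are C or T, on the sense strand and beginning within 5 bases of the start, was found at 29 of the 66 sites (43.9%), against 6027 of 32851 (18.3%) over all genes. No run met the rule at the listed starts of Rpl10a, Rps28, Rpl41, Rpl22 or Rpl36a, each of which led a rise or a fall in a mouse comparison. Transcript starts were not measured here, so a miss at a listed start does not show that the message lacks the motif. The 30 bases around the start follow, with the run in capitals, for the mouse counterparts of the genes that led in both human digitonin arms, for Rps26, and for Rpl41 and Rps28 as starts without a run.
Rpl13a, chr7:45128731-45128760, minus strand: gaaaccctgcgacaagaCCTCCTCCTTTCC
Rps9, chr7:3704026-3704055, plus strand: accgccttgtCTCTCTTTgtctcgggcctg
Rpl28, chr7:4792950-4792979, plus strand: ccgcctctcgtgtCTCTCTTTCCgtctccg
Rps26, chr10:128626492-128626521, minus strand: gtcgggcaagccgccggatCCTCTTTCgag
Rpl41, chr10:128549154-128549183, minus strand: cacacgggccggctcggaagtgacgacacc
Rps28, chr17:33824548-33824577, minus strand: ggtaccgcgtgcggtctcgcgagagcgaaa

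Untreated groups of MLKL cells also differed among themselves. Calcium-free medium raised 11 of 76 genes and lowered 0 (backgrounds 8.55% and 27.7%; 52 higher after centring), led by Rpl3 (2803 and 2835 TPM to 3402 and 3369 TPM; 0.26, SE 0.03), and at most 6 with 1 library left out. The siPKC cells had 48 higher and 2 lower than siCTR cells (23.9% and 21.7%), with Rps14 at 2164 and 2035 TPM against 1862 and 1420 TPM, but 17 higher and 4 lower without the siCTR library at 18.4%, and 2 and 1 with only the compared libraries in the fit. The p65ko cells had 4 higher and 23 lower than noko cells (31.8% and 15.2%), 3 and 40 with centring, and 3 and 14 without replicate 2 of the p65ko libraries. Rps26 was at 3147 and 3167 TPM against 4448 and 4298 TPM (−0.47, SE 0.05) and Rpl41 at 7437 and 7258 TPM against 10239 and 9780 TPM (−0.45, SE 0.06), while Rplp1 was higher (0.32, SE 0.07).

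The AP20187 response was larger in calcium-free than in complete medium in 7 genes and smaller in 0 (backgrounds 10.8% and 11.1%), and between 1 and 10 differed with 1 library left out. With the length trend removed 1 was larger and 3 were smaller. Rps26 differed by 0.31 (SE 0.07, adjusted p = 0.00202), Rpl41 by 0.27 (SE 0.08) and Rpl29 by 0.27 (SE 0.07): these fell in complete medium, and in calcium-free medium Rps26 was at 4879 and 4976 TPM untreated and 5229 and 5351 TPM treated. Compared with parental cells, MLKL cells differed in the AP20187 response in 1 gene, Rpl27 (1896 and 1900 TPM to 1746 and 1707 TPM in MLKL cells, 1786 and 1826 TPM to 1854 and 1859 TPM in parental cells; difference −0.18, SE 0.06, adjusted p = 0.0329; background 8.1% lower), and between 0 and 5 genes differed with 1 library left out. With centring 8 differed, all smaller in MLKL cells.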

How the data were processed

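Polyadenylated RNA was selected, fragmented and sequenced, per the labels' protocols. Per the submitters' processing notes the authors used Salmon, and mm10 and hg19 are the builds. No version, index or way of summing to genes is stated there. The deposited values are TPM, a unit inferred from the values, whose totals lay between 999910 and 1000000 per library, and no column was left without a sample (0). TPM keep no depth, so precision rests on the spread between libraries.

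The genes and the lists for context were chosen with earlier results of these data known. Each of 26 comparisons (15 treatments, 5 of untreated groups, 6 differences between responses) was a contrast in limma 3.58.1 (trend, two-sided) of log2(TPM + 1) in R 4.3.3, with all libraries of a line in a model (HT29 and BxPC3 together) and without a block. The siPKC group with 1 library is assumed to vary like the others. Testing a gene required 1 TPM or more in 2 compared libraries. The fit was tested on simulated data. Genes named are the 3 largest rises and falls past the threshold per treatment, a fixed set (Rplp0, Rpsa, Rps6, Rps3, Rps27a, Rpl3, Rpl13a, Rpl10a, Rps14, Rpl32), of which only some are printed (some genes are not reported here), the highest and lowest means, and genes called against the majority; the others, such as those of untreated groups, of differences between responses, and with copies, were picked after their values were seen. Likeness used Pearson r on log2(TPM + 1) minus the line mean. Copies were rows sharing at least 20% of 31-base words with the first protein-coding transcript of a gene (GENCODE vM21, mm10). Lengths are medians over transcripts of a symbol. Lengths and copies were examined for mouse genes only, so length removal and adding copies were not run for HT29 or BxPC3 cells. Alternatives were median centring, quantile normalization, TPM without the ribosomal protein genes, a pseudocount of 0.1, no filter, only the libraries compared, a replicate block, removal of the length trend, parental controls and leaving out each library; adding copies, and parental controls with centring or length removal, were chosen after seeing the data. Python 3.11.15, pandas 2.3.3, Biopython 1.88 and matplotlib 3.10.9 were used for the rest.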

Additional observations from a re-analysis of the deposited data

Results flagged for a closer look

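The responses of the ribosomal protein genes differed between groups in 4 tests of the difference itself. The AP20187 response of NIH3T3 MLKL and parental cells differed in 1 of 76 genes, Rpl27. Calcium-free and complete medium differed in 7 genes, all with a larger value in calcium-free medium. GSDMD and parental LLC cells differed in their 4OHT response in 34 genes, and BxPC3 and HT29 cells in their digitonin response in 20 of 77. The split of the GSDMD difference was 31 larger and 3 smaller, against 62 and 0 with centring and 13 and 5 under quantile normalization, and that of the BxPC3 difference 13 and 7, against 69 and 0 and 7 and 27. The calcium-free difference became 1 larger and 3 smaller with the length trend removed. All 4 counts of genes came from limma with adjusted p under 0.05. The backgrounds over all genes are given with each test above. In all 4 tests a smaller share of the ribosomal protein genes passed than of all genes. Groups of 2 libraries were too small to search for outlying libraries.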

How the results depend on the processing

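Counts below are ribosomal protein genes past the threshold, with those higher and lower in parentheses. The pseudocount of 0.1 moved 0 of 26 counts by more than 1.5 times. The cause of the other differences between settings was not tested. Length removal and adding copies were run for 23 of the 26 comparisons, those of the mouse lines. How the HT29 and BxPC3 counts depend on length or copies was not tested.

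With median centring the counts were 73 (73, 0) for AP20187 in NIH3T3 MLKL siCTR, 38 (38, 0) for AP20187 in NIH3T3 MLKL siPKC, 71 (71, 0) for AP20187 in NIH3T3 MLKL noko, 73 (73, 0) for AP20187 in NIH3T3 MLKL p65ko, 73 (72, 1) for 4OHT in NIH3T3 GSDMD, 1 (0, 1) for 4OHT in parental LLC, 63 (63, 0) for 4OHT in LLC GSDMD, 2 (0, 2) for AP20187 in LLC MLKL, 75 (75, 0) for digitonin in HT29, 77 (77, 0) for digitonin in BxPC3, 52 (52, 0) for calcium-free against complete medium, untreated NIH3T3 MLKL, 43 (3, 40) for p65ko against noko, untreated NIH3T3 MLKL, 8 (0, 8) for AP20187 response, MLKL against parental NIH3T3, 8 (0, 8) for AP20187 response, siPKC against siCTR, 62 (62, 0) for 4OHT response, GSDMD against parental LLC, 69 (69, 0) for digitonin response, BxPC3 against HT29. Signs turned for Rps2 at 0.13 (4OHT in NIH3T3 GSDMD), Rpl27 at 0.16 (4OHT in NIH3T3 GSDMD), Rpl22 at 0.00091 (4OHT in LLC GSDMD), Rpl21 at 0.011 (4OHT in LLC GSDMD), Rpl11 at 0.056 (4OHT in LLC GSDMD), RPL35 at 0.14 (digitonin in BxPC3), RPS7 at 0.26 (digitonin in BxPC3), RPS27A at 0.28 (digitonin in BxPC3), Rpl21 at 0.073 (4OHT response, GSDMD against parental LLC), Rpl22 at 0.085 (4OHT response, GSDMD against parental LLC), Rpl11 at 0.11 (4OHT response, GSDMD against parental LLC), RPS7 at 0.023 (digitonin response, BxPC3 against HT29), RPL38 at 0.078 (digitonin response, BxPC3 against HT29), RPS27A at 0.13 (digitonin response, BxPC3 against HT29).

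With quantile normalization, which gives every library the same distribution, the counts were 13 (9, 4) for AP20187 in NIH3T3 MLKL siCTR, 4 (2, 2) for AP20187 in NIH3T3 MLKL siPKC, 14 (2, 12) for AP20187 in NIH3T3 MLKL noko, 10 (2, 8) for AP20187 in NIH3T3 MLKL p65ko, 25 (7, 18) for 4OHT in NIH3T3 GSDMD, 11 (5, 6) for digitonin in LLC, 10 (4, 6) for digitonin in HT29, 53 (12, 41) for digitonin in BxPC3, 4 (1, 3) for AP20187 response, MLKL against parental NIH3T3, 2 (1, 1) for AP20187 response, p65ko against noko, 18 (13, 5) for 4OHT response, GSDMD against parental LLC, 34 (7, 27) for digitonin response, BxPC3 against HT29. In this setting signs changed for Rplp0 at −0.027 (AP20187 in NIH3T3 MLKL siCTR), Rpsa at −0.11 (AP20187 in NIH3T3 MLKL siCTR), Rps3 at −0.019 (AP20187 in NIH3T3 MLKL p65ko), Rps3 at −0.090 (4OHT in NIH3T3 GSDMD), Rpl3 at 0.064 (digitonin in NIH3T3), Rps27a at −0.0077 (4OHT in LLC GSDMD), RPLP0 at −0.0073 (digitonin in HT29), RPSA at −0.13 (digitonin in BxPC3), RPL32 at −0.13 (digitonin in BxPC3), Rpsa at −0.015 (siPKC against siCTR, untreated NIH3T3 MLKL), Rpl3 at 0.0086 (p65ko against noko, untreated NIH3T3 MLKL), Rpl10a at −0.063 (noDig against parental NT, NIH3T3), Rps14 at −0.016 (noDig against parental NT, LLC).

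With no filter on low values the counts were 7 (0, 7) for AP20187 in NIH3T3 MLKL, 2 (2, 0) for AP20187 in NIH3T3 MLKL noko, 0 (0, 0) for AP20187 in LLC MLKL, 6 (4, 2) for digitonin in LLC, 14 (14, 0) for digitonin in HT29, 7 (7, 0) for calcium-free against complete medium, untreated NIH3T3 MLKL, 0 (0, 0) for AP20187 response, MLKL against parental NIH3T3, 4 (4, 0) for AP20187 response, calcium-free against complete medium, 19 (18, 1) for 4OHT response, GSDMD against parental LLC, 11 (8, 3) for digitonin response, BxPC3 against HT29.

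With only the compared libraries in the fit the counts were 3 (0, 3) for AP20187 in NIH3T3 MLKL, 4 (4, 0) for AP20187 in NIH3T3 MLKL siCTR, 4 (3, 1) for AP20187 in NIH3T3 MLKL siPKC, 24 (23, 1) for AP20187 in NIH3T3 MLKL noko, 32 (32, 0) for AP20187 in NIH3T3 MLKL p65ko, 18 (16, 2) for 4OHT in NIH3T3 GSDMD, 0 (0, 0) for AP20187 in LLC MLKL, 4 (2, 2) for digitonin in LLC, 34 (33, 1) for calcium-free against complete medium, untreated NIH3T3 MLKL, 3 (2, 1) for siPKC against siCTR, untreated NIH3T3 MLKL, 45 (11, 34) for p65ko against noko, untreated NIH3T3 MLKL, 3 (0, 3) for AP20187 response, MLKL against parental NIH3T3, 3 (3, 0) for AP20187 response, p65ko against noko.

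With the length trend removed the counts were 2 (1, 1) for AP20187 in NIH3T3 MLKL, 2 (0, 2) for AP20187 in NIH3T3 MLKL, calcium-free, 72 (72, 0) for AP20187 in NIH3T3 MLKL siCTR, 40 (40, 0) for AP20187 in NIH3T3 MLKL siPKC, 67 (67, 0) for AP20187 in NIH3T3 MLKL noko, 66 (66, 0) for AP20187 in NIH3T3 MLKL p65ko, 69 (68, 1) for 4OHT in NIH3T3 GSDMD, 28 (11, 17) for digitonin in NIH3T3, 72 (72, 0) for 4OHT in LLC GSDMD, 0 (0, 0) for AP20187 in LLC MLKL, 19 (15, 4) for digitonin in LLC, 48 (48, 0) for calcium-free against complete medium, untreated NIH3T3 MLKL, 56 (3, 53) for p65ko against noko, untreated NIH3T3 MLKL, 0 (0, 0) for AP20187 response, MLKL against parental NIH3T3, 4 (1, 3) for AP20187 response, calcium-free against complete medium, 7 (0, 7) for AP20187 response, siPKC against siCTR, 69 (69, 0) for 4OHT response, GSDMD against parental LLC. Signs turned for Rps2 at 0.094 (4OHT in NIH3T3 GSDMD), Rpl27 at 0.056 (4OHT in NIH3T3 GSDMD), Rps3 at 0.12 (digitonin in NIH3T3), Rpl3 at 0.070 (digitonin in NIH3T3), Rpl13a at 0.061 (digitonin in NIH3T3), Rpl32 at 0.065 (digitonin in NIH3T3), Rpl22 at 0.14 (4OHT in LLC GSDMD), Rpl21 at 0.19 (4OHT in LLC GSDMD), Rpl11 at 0.20 (4OHT in LLC GSDMD), Rpl21 at 0.19 (4OHT response, GSDMD against parental LLC), Rpl22 at 0.19 (4OHT response, GSDMD against parental LLC), Rpl11 at 0.19 (4OHT response, GSDMD against parental LLC).

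With TPM rescaled without the ribosomal protein genes the counts were 2 (0, 2) for AP20187 in LLC MLKL, 2 (0, 2) for AP20187 response, MLKL against parental NIH3T3.

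With copies added the counts were 2 (0, 2) for AP20187 in LLC MLKL. Reversed in sign were Rpl26 at 0.10 (4OHT in NIH3T3 GSDMD), Rps27 at −0.047 (digitonin in LLC), Rpl26 at 0.20 (noDig against parental NT, LLC).

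With parental NT libraries as controls the counts were 63 (48, 15) for digitonin in LLC. There the sign turned for Rpsa at 0.20 (digitonin in NIH3T3), Rps3 at 0.054 (digitonin in NIH3T3), Rpl3 at 0.067 (digitonin in NIH3T3), Rpl23 at 0.51 (digitonin in LLC).

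With parental NT controls and centring the counts were 50 (40, 10) for digitonin in NIH3T3, 61 (52, 9) for digitonin in LLC. Signs turned for Rpl41 at 0.092 (digitonin in NIH3T3), Rpsa at 0.43 (digitonin in NIH3T3), Rps3 at 0.28 (digitonin in NIH3T3), Rpl3 at 0.29 (digitonin in NIH3T3), Rpl22 at 0.073 (digitonin in LLC), Rpl23 at 0.58 (digitonin in LLC).

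With parental NT controls and the length trend removed the counts were 53 (35, 18) for digitonin in NIH3T3, 66 (54, 12) for digitonin in LLC. In this setting signs changed for Rpsa at 0.37 (digitonin in NIH3T3), Rps3 at 0.22 (digitonin in NIH3T3), Rpl3 at 0.24 (digitonin in NIH3T3), Rpl22 at 0.14 (digitonin in LLC), Rpl23 at 0.64 (digitonin in LLC).

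With 1 library left out the counts ranged from 4 to 14 for AP20187 in NIH3T3 MLKL, from 12 to 69 for AP20187 in NIH3T3 MLKL siCTR, from 0 to 2 for AP20187 in NIH3T3 MLKL siPKC, from 1 to 4 for AP20187 in NIH3T3 MLKL noko, from 1 to 4 for AP20187 in NIH3T3 MLKL p65ko, from 11 to 23 for 4OHT in NIH3T3 GSDMD, from 57 to 60 for digitonin in NIH3T3, from 30 to 33 for 4OHT in LLC GSDMD, from 0 to 0 for AP20187 in LLC MLKL, from 5 to 19 for digitonin in LLC, from 14 to 24 for digitonin in HT29, from 36 to 49 for digitonin in BxPC3, from 4 to 6 for calcium-free against complete medium, untreated NIH3T3 MLKL, from 21 to 61 for siPKC against siCTR, untreated NIH3T3 MLKL, from 17 to 22 for p65ko against noko, untreated NIH3T3 MLKL, from 44 to 52 for noDig against parental NT, NIH3T3, from 57 to 60 for noDig against parental NT, LLC, from 0 to 5 for AP20187 response, MLKL against parental NIH3T3, from 1 to 10 for AP20187 response, calcium-free against complete medium, from 0 to 30 for AP20187 response, siPKC against siCTR, from 22 to 32 for 4OHT response, GSDMD against parental LLC, from 11 to 25 for digitonin response, BxPC3 against HT29. Without replicate 2 of the untreated siCTR libraries Rps27a stood at −0.0086 and Rps14 stood at −0.027, and without replicate 1 Rps27a at 0.35 and Rps14 at 0.36.

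With a replicate block the counts were 0 (0, 0) for AP20187 in NIH3T3 MLKL siPKC, 15 (7, 8) for digitonin in LLC, 2 (0, 2) for AP20187 response, MLKL against parental NIH3T3, 8 (0, 8) for AP20187 response, siPKC against siCTR, and the others stayed within 1.5 times. Deviations of same-numbered libraries had correlations from −0.05 to 0.13, so no strong shared deviation was seen. Whether same-numbered libraries were handled together is not given, and these values cannot decide it. LLC MLKL was not given a block, since both treated titles carry the same number.

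TPM keep no depth, so counting error is unknown, and 2 libraries a group limit every test.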
